A study of Arabidopsis thaliana with 6 samples.

Results

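The genes described here are cellulose synthase-like (CSL) genes, taken by their symbols in the platform annotation, which lists a gene for only part of the probe sets. A member is a probe set, the array's set of short probes for a transcript, with 1 annotated gene whose symbol begins with CESA, CSLA, CSLB, CSLC, CSLD, CSLE or CSLG and ends in digits. The rule gave 7 members of 22746 probe sets: 4 CSLC genes (CSLC04, CSLC5, CSLC6 and CSLC12), 2 CSLA genes (CSLA01 and CSLA03) and 1 CSLD gene (CSLD2). It found 0 CESA genes, so cellulose synthase itself was not analysed here and each statement below is about the CSL genes alone. The reference gene table holds 33 genes with such a symbol, among them 7 CESA, 7 CSLA, 4 CSLC and 6 CSLD genes. A further CSLC gene with 1 listed probe set, ATCSLC08, is missed by the rule through the prefix of its symbol, and its values are given beside the members. All 7 member probe sets carry the plain "_at" suffix, which on this array marks a set without a warning of cross-hybridisation.

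The study compared pop2-1 homozygous flowers with wild-type flowers of Arabidopsis thaliana, both of the Ler accession, with 3 biological replicates of each on Affymetrix ATH1 arrays. POP2 encodes the transaminase that degrades γ-aminobutyric acid (GABA), and the design text states that the mutant flowers hold high levels of it. Flowers of both groups were pollinated and at stage 14 to 15, from plants grown at 21 °C in 16 hours of light. The mutant is represented by a single allele, and how many flowers or plants went into a replicate is not given in the sources used here. The groups were taken from the array titles, since other labels of the wild-type arrays repeat the mutant's wording. POP2 had 0 probe sets with 1 listed gene, so its transcript could not be set against the labels. RNA came from whole flowers, in which fewer cells of a type and less RNA per cell cannot be told apart.

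Cellulose synthases and CSL proteins belong to one large family of membrane glycosyltransferases that extend β-linked glycan chains from nucleotide sugars. Cellulose synthase works in complexes at the plasma membrane, whereas CSLC and CSLA proteins act in the Golgi. There CSLC proteins make the glucan backbone of xyloglucan, the hemicellulose that coats cellulose in primary walls, and CSLA proteins make the backbone of mannans and glucomannans. CSLD proteins are closest to the cellulose synthases and are known for their part in tip-growing cells such as root hairs and pollen tubes, and in cell plate formation. In a pollinated flower, wall synthesis proceeds in growing pollen tubes and in the young pistil alike.

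No member passed the test between pop2-1 and wild type. The test was limma on log2(signal + 16), with Benjamini-Hochberg adjustment over the 13647 probe sets bright enough to be tested, and a gene passed at an adjusted p under 0.05. All 7 members were tested and 0 of 7 passed, where 0.462% of all tested probe sets did (63 of 13647). The groups overlapped for every member, where 17.9% of all tested probe sets had groups that did not overlap. At an unadjusted p under 0.05 there was 1 member of 7, CSLA01, against 11.9% of all tested probe sets. With the replicate number of the arrays as a block there were 2 of 7, CSLA01 and CSLC12, against 17.1% of all tested probe sets. The largest differences were those of CSLC12 and CSLA01, each about 1.4-fold higher in pop2-1, and the other members differed by at most 1.13-fold either way.

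**Figure D1:**
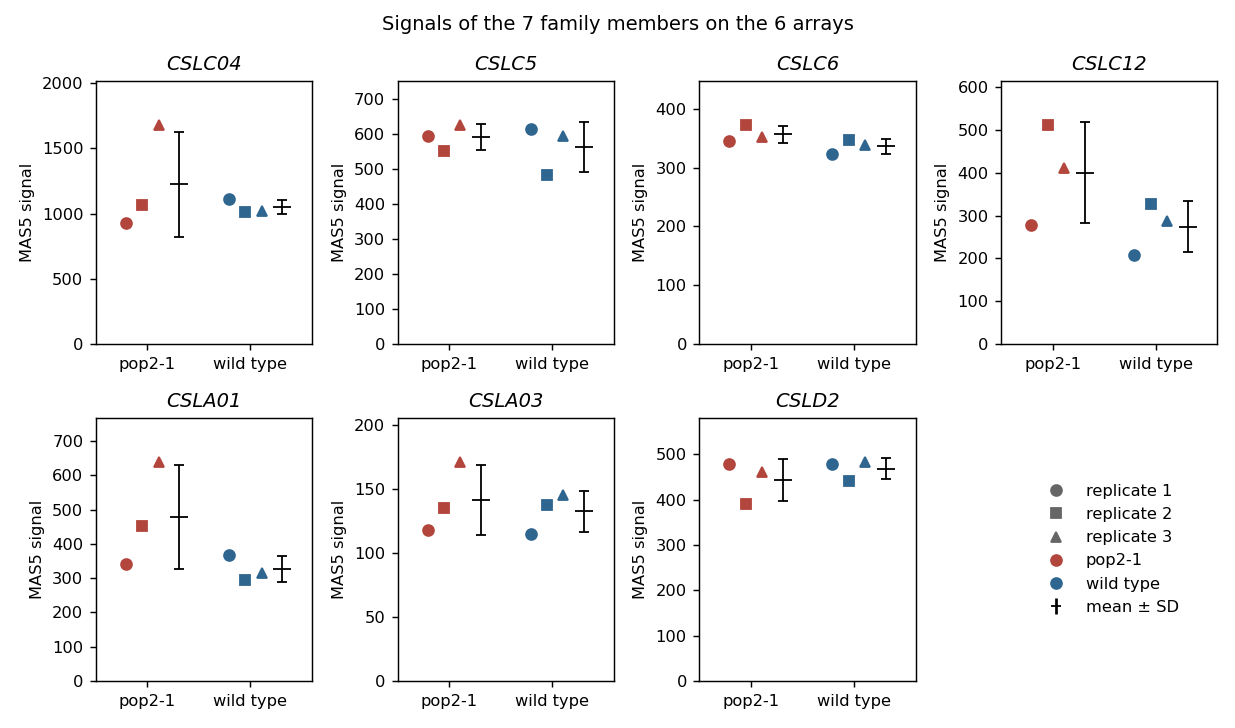
MAS5 signal (vertical axis, linear and starting at 0, with its own range in each panel) of the 7 CSL genes on each array, pop2-1 at the left and wild type at the right of each panel. Symbols give the replicate number and bars the mean ± SD of 3 arrays; the groups overlap in each of the 7 panels, and the pop2-1 signals of CSLA01, CSLC04 and CSLC12 lie farther apart than their wild-type signals.

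CSLC04 is the member of this subfamily best known for making the xyloglucan backbone. Its signals were 925, 1067 and 1679 on pop2-1 arrays 1 to 3 and 1110, 1012 and 1023 on wild-type arrays 1 to 3. The pop2-1 arrays lay on both sides of the wild-type ones, with replicate 1 below all 3 of them and replicate 3 far above. The mean was 1224 ± 401 over the 3 pop2-1 arrays and 1049 ± 53.9 over the 3 wild-type arrays (± SD), a log2 difference of 0.17 ± 0.20 (SE, limma adjusted p = 0.75). Without pop2-1 replicate 3 the difference changed sign, to -0.075.

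CSLC12 encodes another of the xyloglucan glucan synthases. It had signals of 279, 511 and 411 in pop2-1 and of 209, 326 and 287 in wild type. The 2 highest signals were both from pop2-1 flowers, and the lowest of pop2-1 lay within the wild-type range. The mean was 400.2 ± 117 over the 3 pop2-1 arrays and 274 ± 59.9 over the 3 wild-type arrays (± SD), 1.42-fold higher in pop2-1 on the log2(signal + 16) scale (log2 0.50 ± 0.23, SE, limma adjusted p = 0.433).

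The spread of CSLC12 was shared between the groups by replicate number. In both groups replicate 2 was highest and replicate 1 lowest, and pop2-1 exceeded wild type by 0.39, 0.62 and 0.49 log2 units between arrays of number 1, 2 and 3. With the replicate number as a block the standard error of CSLC12 was 0.13 in place of 0.23, and its limma adjusted p was 0.096. The block left 0 of 7 members past the threshold, where it called 1.90% of all tested probe sets.

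The summed signal of 7 pollen and pollen tube markers followed the same order of arrays as CSLC12 within each group. It was 2271, 3363 and 3293 on pop2-1 arrays 1 to 3 and 1968, 2459 and 2137 on wild-type arrays 1 to 3, which spans 2271 to 3363 for pop2-1 flowers and 1968 to 2459 for wild-type flowers. Taken singly, only the markers ANX2 and AT4G39110 had the CSLC12 order of arrays in both groups. Of the 7 markers 6 were bright enough to test and 0 passed, against 0.462% of all tested probe sets. All 6 had a positive log2 difference (median 0.46), against 55.4% of all tested probe sets. The groups did not overlap for 2 of 6, against 17.9%. At an unadjusted limma p under 0.05 there was 1 of 6, against 11.9%. With the replicate block there were 5 of 6, against 17.1%. The 4 markers with the smallest p without the block were MGH3, a histone of male gametes (log2 0.53 ± 0.23, SE), AT2G21480 (0.49 ± 0.22), the receptor kinase gene ANX2 (0.49 ± 0.24) and AT1G29140 (0.33 ± 0.16). No marker was at 0, and the lowest signal of any marker was 52.4 in pop2-1 and 70.0 in wild type, both for the pollen tube receptor kinase ANX1. The array with the highest CSLC12 signal, pop2-1 replicate 2, also had an actin 3' over 5' ratio, a measure of RNA integrity, of 9.73, where the remaining arrays had 1.72 to 2.93. On pop2-1 arrays 1 to 3 the actin ratio was 1.81, 9.73 and 2.70, the order of CSLC12. On wild-type arrays 1 to 3 it was 2.16, 2.93 and 1.72, highest on replicate 2 as CSLC12 was, but lowest on replicate 3. Without pop2-1 replicate 2 the log2 difference of CSLC12 was 0.31, and without wild-type replicate 1 it was 0.33. The part of pollen content and of RNA quality in the CSLC12 values was not tested.

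**Figure D2:**
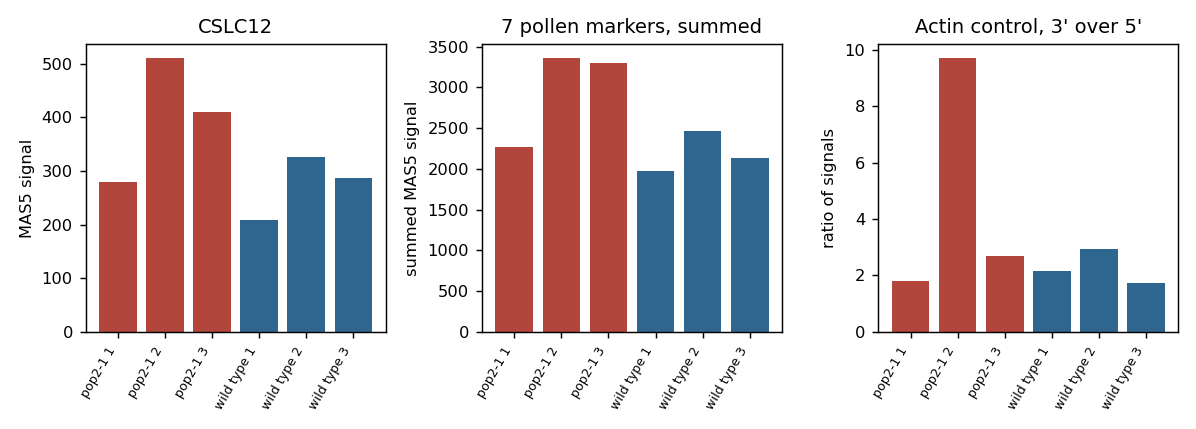
From left to right, the MAS5 signal of CSLC12, the summed MAS5 signal of 7 pollen markers and the ratio of the 3' to the 5' actin control signal on each of the 6 arrays (bars, 1 array each, pop2-1 at the left in red, wild type in blue; axes start at 0). CSLC12 and the pollen sum share their order of arrays within each group, with replicate 2 highest at 511 and 326 for CSLC12. The actin ratio is also highest on replicate 2 in each group, and stands apart at 9.73 on pop2-1 replicate 2. It has the CSLC12 order of arrays in pop2-1 but not in wild type. Taken singly, only the markers ANX2 and AT4G39110 share the CSLC12 order in both groups.

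The remaining CSLC members, CSLC5 and CSLC6, differed little between the groups. CSLC5 had signals of 594, 554 and 627 in pop2-1 and of 616, 483 and 595 in wild type. These groups covered much the same range, with a log2 difference of 0.07 ± 0.13 (SE, limma adjusted p = 0.849). CSLC5 was also the 1 member whose log2 signals were less spread in pop2-1 (SD 0.088) than in wild type (SD 0.19).

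CSLC6 had signals of 345, 373 and 351 in pop2-1 and of 322, 347 and 339 in wild type. Replicates 2 and 3 of pop2-1 lay above all wild-type arrays, by a margin that the test did not separate from the spread (log2 0.08 ± 0.12, SE, limma adjusted p = 0.811). The mean was 356 ± 14.4 over the 3 pop2-1 arrays and 336 ± 12.6 over the 3 wild-type arrays (± SD), a coefficient of variation of 4.04% and 3.75%, the lowest of the 7 members in each group. Its 95% interval ran from 0.875-fold to 1.28-fold.

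ATCSLC08, the CSLC gene outside the rule, had signals of 457, 421 and 413 in pop2-1 and of 352, 419 and 367 in wild type. The lowest of pop2-1 lay just under the highest of wild type (log2 0.18 ± 0.13, SE, limma adjusted p = 0.6). With it, all 5 CSLC genes had a positive log2 difference, against 55.4% of all tested probe sets, with a median of 0.17. The sign changed for CSLC04 without pop2-1 replicate 3 and for CSLC5 without wild-type replicate 2. The median of the 4 CSLC members alone was 0.13, and that of all tested probe sets was 0.03. Of the 5 genes 0 passed, against 0.462% of all tested probe sets.

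Of the CSLA genes, which encode mannan and glucomannan synthases, CSLA01 had an unadjusted p of 0.0448 in limma, and of 0.0321 with the replicate block. Its signals were 340.0, 451 and 640.1 on pop2-1 arrays 1 to 3 and 368, 294 and 315 on wild-type arrays 1 to 3. Replicates 2 and 3 of pop2-1 lay above all wild-type arrays, and replicate 1 lay inside the wild-type range. The mean was 477 ± 152 over the 3 pop2-1 arrays and 326 ± 38.1 over the 3 wild-type arrays (± SD), 1.40-fold higher in pop2-1 on the log2(signal + 16) scale (log2 0.49 ± 0.21, SE, limma adjusted p = 0.408). An absolute log2 difference larger than that of CSLA01 was found in 6.49% of all tested probe sets, and one larger than that of CSLC12 in 6.02%.

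The size of the CSLA01 difference depended most on pop2-1 replicates 1 and 3. Without replicate 3 the log2 difference was 0.26, and without pop2-1 replicate 1 it was 0.70 (limma adjusted p = 0.066). With weights fitted to each array, which gave pop2-1 replicate 3 a weight of 2.64 and pop2-1 replicates 1 and 2 weights of 0.414 and 0.302, CSLA01 stood at 0.81 and passed (limma adjusted p = 0.0163). That setting was the 1 of 14 alternatives for CSLA01 in which it passed.

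CSLA03 acts in the synthesis of glucomannan in stems together with other CSLA genes. Its signals were 118, 135 and 171 in pop2-1 and 114, 138 and 145 in wild type. Replicate 1 of each group lay under the mean signal of 129.7 that was set as the lower limit for testing, while the mean over all 6 arrays, 136.8, lay just over it. The groups overlapped almost fully, with a log2 difference of 0.08 ± 0.20 (SE, limma adjusted p = 0.899). In both groups replicate 3 was highest and replicate 1 lowest.

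CSLD2, which acts in root hair growth together with its close relative CSLD3, was the 1 member with a negative difference. Its signals were 478, 391 and 461 in pop2-1 and 479, 442 and 484 in wild type. Replicate 2 was the lowest array of each group, and the pop2-1 array was below the wild-type array of the same number in all 3 pairs. The log2 difference was -0.08 ± 0.13 (SE, limma adjusted p = 0.822), and it was 0.0049 without pop2-1 replicate 2, the array with the high actin ratio. The pollen-expressed CSLD genes were not among the members and were not analysed here.

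**Figure D3:**
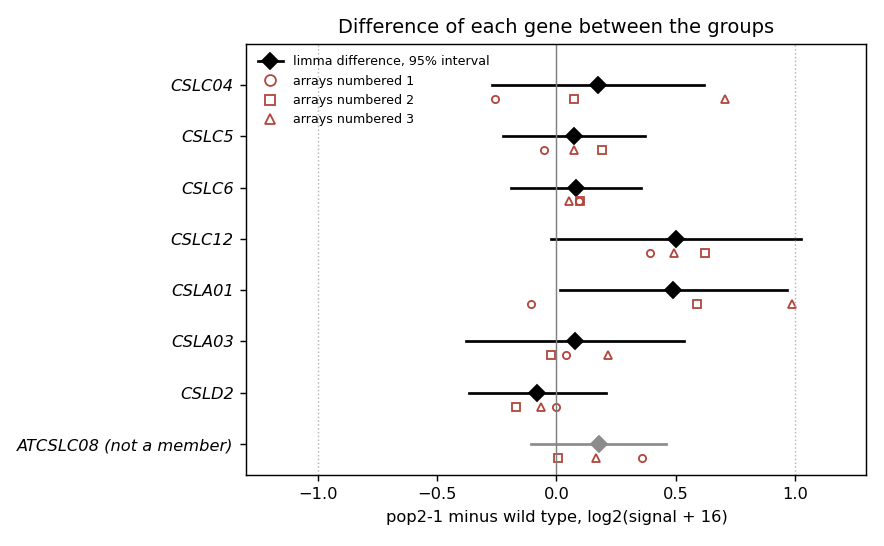
Difference between pop2-1 and wild type in log2(signal + 16) for the 7 members and for ATCSLC08 (grey), with diamonds for the limma estimate from 3 arrays per group, lines for its 95% interval without the replicate block, and open symbols for the difference between arrays of the same replicate number. Dotted lines mark a 2-fold difference; 6 of 7 member intervals lie inside them, and CSLC12 reaches 2.04-fold.

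In the fit without the replicate block, the 95% interval of a single gene, unadjusted for the number of genes, lay inside 2-fold in either direction for 6 of 7 members and inside 1.5-fold for 4 of 7 (CSLA03, CSLC5, CSLC6 and CSLD2). For CSLC12 it ran from 0.986-fold to 2.04-fold and for CSLA01 from 1.01-fold to 1.95-fold. The interval of CSLC04 ran from 0.83-fold to 1.53-fold. With the replicate block the intervals of all 7 members lay inside 2-fold and those of 5 inside 1.5-fold. The interval of CSLC12 then ran from 1.15-fold to 1.74-fold and that of CSLA01 from 1.04-fold to 1.90-fold, while those of the other 5 members spanned no difference. On simulated signals the test recovered 66% of the probe sets given a 2-fold difference and 93% of those given a 4-fold one, of 100 each. The simulation gave both groups the same averaged spread per probe set and no replicate effect. In the data the median ratio of the pop2-1 SD to the wild-type SD was 1.71, so these shares need not hold for the members.

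Across the family 6 of 7 members had a positive difference, against 55.4% of all tested probe sets (7560 of 13647). The median log2 difference was 0.08 over the 7 members and 0.03 over all tested probe sets. Within pop2-1, 4 members were highest on replicate 3, namely CSLA01, CSLA03, CSLC04 and CSLC5, and 5 were lowest on replicate 1, namely CSLA01, CSLA03, CSLC04, CSLC6 and CSLC12. The median deviation of the members from their wild-type means was accordingly 0.34 log2 units on pop2-1 replicate 3, against 0.037 and 0.031 on pop2-1 replicates 1 and 2.

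The members were more spread among pop2-1 arrays than among wild-type arrays, as most transcripts were. The SD of the log2 signal was larger in pop2-1 for 6 of 7 members and for 74.1% of all tested probe sets. CSLC04 had the most unequal spread of the 7, with an SD of 0.44 in pop2-1 and 0.072 in wild type, a ratio of 6.15 that 6.03% of all tested probe sets exceeded. The ratio of CSLA01 was 2.80 (25.9% exceeded it), whereas those of CSLC6 and CSLC12 were 1.06 and 1.36.

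Profiles over the 6 arrays were compared by the root mean square distance between log2 signals centred on each gene's own mean. Of the 21 pairs of members the closest were CSLC5 and CSLD2 (0.12), CSLC5 and CSLC6 (0.15), and CSLC6 and CSLD2 (0.16). These 3 genes were also those whose signals varied least over the 6 arrays. CSLA01 and CSLC04 had a distance of 0.18 and the same order of arrays within each group, with replicate 3 highest in pop2-1 and replicate 1 highest in wild type. All distances share the same 6 arrays and are descriptions.

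**Figure D4:**
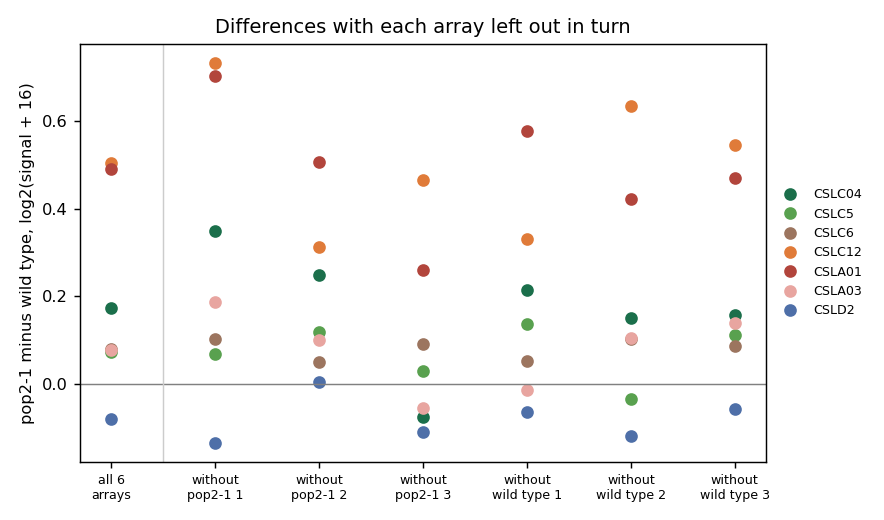
Difference between pop2-1 and wild type in log2(signal + 16) for each of the 7 members (colours), with all 6 arrays at the far left and then with each array left out in turn, pop2-1 arrays before wild-type arrays. CSLA01 and CSLC12 stay above 0 in each fit, from 0.26 to 0.70 and from 0.31 to 0.73, whereas CSLC04 and CSLA03 lie below 0 without pop2-1 replicate 3.

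Other genes of the same pathways were sparsely listed in the annotation. Of 27 genes listed as partners of the cellulose synthase complex 6 had a listed probe set with 1 gene. All 6 were tested and 0 passed, against 0.462% of all tested probe sets. Their median log2 difference was 0.18, against 0.03 for all tested probe sets, and the groups did not overlap for 2 of 6, against 17.9% of all tested probe sets. AT3G57420 had signals of 308, 373 and 364 in pop2-1 and of 300.3, 295 and 289 in wild type, without overlap (log2 0.22 ± 0.13, SE, limma adjusted p = 0.529). AT1G45688 had 752, 887 and 827 in pop2-1 against 681, 729 and 750 in wild type, the lowest pop2-1 signal just above the highest wild-type one (log2 0.19 ± 0.12, SE, limma adjusted p = 0.55). The other 4 overlapped, among them AT2G41770 (log2 0.17 ± 0.16, SE), AT5G42860 (log2 0.19 ± 0.19, SE) and COB, the gene of the cell-surface protein COBRA that guides cellulose deposition (log2 -0.08 ± 0.12, SE).

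The gene with the smallest p on these lists was on the mannan list, of which 1 gene of 4 had a listed probe set. AT2G22900 had signals of 666, 608 and 733 in pop2-1 and of 930.4, 953 and 879 in wild type, so that all pop2-1 arrays lay below all wild-type arrays. Groups did not overlap, in either direction, for 17.9% of all tested probe sets. Its log2 difference was -0.45 ± 0.12 (SE), 0.73-fold, with a limma adjusted p of 0.165, and it did not pass. With the replicate block its adjusted p was 0.0992.

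Of the 22 genes on the secondary wall and xylan list, 4 had a listed probe set with 1 gene. Of these 2 were bright enough to test (median log2 0.09) and 0 passed, against 0.462% of all tested probe sets. The tested genes were the xylan synthesis genes GUT2, also called IRX10, with a log2 difference of 0.25 ± 0.18 (SE), and GUT1, with one of -0.07 ± 0.13 (SE). The summed signal of the 4 genes lay between 928 and 967 on pop2-1 arrays and between 858 and 907 on wild-type arrays. Taken singly, each of the 4 genes, of which 2 were tested, overlapped between the groups. The groups did not overlap for 17.9% of all tested probe sets. The mean of GUT1, the brightest, was lower in pop2-1 (582 against 609). Those of IRX15 and IRX15-L, both too dim to test, were higher (47.2 against 18.9 and 113 against 79.8). IRX15 was dim throughout, with 7.29 to 79.4 on pop2-1 arrays against 5.90 to 32.7 on wild-type arrays. Of the 9 other genes listed for xyloglucan synthesis and the 10 callose synthases, 0 had a probe set with 1 listed gene, and these were not analysed here.

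Across the whole series, the median signal of an array lay between 209 and 229. Arrays correlated at a Spearman coefficient of 0.928 to 0.960 within pop2-1 and of 0.979 to 0.982 within wild type, taken across probe sets that are not independent replicates. Of the 63 probe sets that passed, 20 were higher and 43 lower in pop2-1, a split that did not hold with array weights (477 higher and 495 lower) or without pop2-1 replicate 3 (3 higher and 2 lower), wild-type replicate 2 (3 and 2) or wild-type replicate 3 (5 and 3).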

How the data were processed

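Arrays were grouped by their titles, which call the replicates biological, since other wild-type labels repeat the mutant's wording. The deposited values are linear hybridisation intensities, 1 MAS5 signal per probe set. MAS5 is the tool that the submitters' processing notes name, and its version and scaling target are not given in the sources used here. It subtracts background and brings arrays to one average (the 2% trimmed mean was 500.0 on each), so a change in total RNA cannot be seen. Detection calls were not used here. Precision is limited by the number of arrays, and levels were not compared between genes.

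Platform annotation listed 1 gene for 13513 of 22810 probe sets, several for 503 and none for 8794. The TAIR10.1 reference gene table, matched by Entrez number, held 13436 of the 13513. No coordinates are given, since no genome build comes with the signals. The 64 array controls were left out, and log2(signal + 16) was taken, which understates differences of dim genes. Testing was limited to probe sets whose mean over the 6 arrays exceeded the 40th percentile. The groups were compared in limma 3.58.1 (R 4.3.3; lmFit and trended eBayes, 2-sided) without a block, after a test on simulated data.

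Same-numbered arrays deviated together (correlations of 0.208, 0.418 and 0.172 across probe sets, with 6 of 6 arrays closest to their own number). The fit with the replicate block was therefore read as a paired alternative, although no label says what the numbers share. The main fit did not use the pairing, and SEs, p-values and intervals are from it unless the block or another setting is named.

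Members and gene lists were chosen with earlier results of these data known. Each member is described. From each list, genes that passed or up to 4 with the smallest p are named, and the 3 closest pairs of members. COB, IRX15, IRX15-L, ANX1, AT4G39110 and the pair of CSLA01 and CSLC04 were added after their values were seen. Alternatives were the replicate block, pseudocounts of 1 and 64, no filter or one at the 60th percentile, quantile normalization, equal medians, array weights, each array left out, an adjusted p under 0.10 and an unequal-variance test.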

Additional observations from a re-analysis of the deposited data

How the results depend on the processing

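Over the 96 refits of single members, 1 call appeared, that of CSLA01 with array weights. The count of members that passed was 0 in each other setting, including the replicate block and every fit without 1 array, and was 1 with array weights. Signs changed only in fits that left out an array, for members whose differences were small: over those fits CSLC04 ran from -0.075 to 0.35, CSLA03 from -0.055 to 0.19, CSLC5 from -0.034 to 0.14 and CSLD2 from -0.13 to 0.0049. CSLA01, CSLC6 and CSLC12 kept a positive sign in each refit run. The median over members was 0.08, 0.02 with equal medians, 0.03 to 0.19 without 1 array and 0.23 with array weights. CSLA03 and CSLC12 were too dim to be tested with a filter at the 60th percentile.

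Over all tested probe sets 63 passed, and this count moved to 259 with the replicate block, 41 with a filter at the 60th percentile (fewer probe sets tested), 972 with array weights, 152 at an adjusted p under 0.10, and 5 to 527 without 1 array (527 without pop2-1 replicate 1, 5 without pop2-1 replicate 3, and 15, 5 and 8 without wild-type replicates 1, 2 and 3). An unequal-variance test per probe set called 0, with 1022 at an unadjusted p under 0.05. The cause of these moves was not tested. Signal over background could not be judged for dim members such as CSLA03.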
